A study of Homo sapiens with 4 samples.

Results

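HOX genes encode transcription factors that bind DNA through a homeodomain and give cells their position along the body axis. In human cells they lie in clusters named HOXA, HOXB, HOXC and HOXD, and genes with the same number in different clusters descend from one ancestral gene and form a paralog group. Within a cluster, genes with low numbers (the 3′ end) are generally used earlier and further to the head than genes with high numbers (the 5′ end), and the pattern set in the embryo is kept in adult cells by Polycomb proteins, which hold the genes silent, and Trithorax proteins, which keep them active. HOX proteins usually bind DNA together with PBX and MEIS cofactors.

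The HOX genes were followed in PC3 cells, an androgen-independent line made from a bone metastasis of a human prostate cancer. All cells were infected with a lentiviral shRNA, directed either against ALKBH3, a DNA and RNA demethylase, or a control (GFP, per the methods), and then kept in puromycin for 48 h or 96 h. Each combination of shRNA and time was measured on 1 one-colour Agilent array, so that each shRNA had 2 arrays and each time point had 2 arrays, and a slide carried both arrays of a single time point. No label states separate infections, the 2 arrays of an shRNA differ in time, and the p-values rest on the spread between these arrays.

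Members were probes whose gene symbol was HOXA, HOXB, HOXC or HOXD followed by a position number, as far as they are reported here, and the counts are not those of the whole family. Symbols were taken from RefSeq through the accession of each probe. This gave 42 probes of 38 genes among 34127 probes and 19102 named genes, with 11 genes in HOXA and 9 in each of HOXB, HOXC and HOXD. HOXA9, HOXA10, HOXB2 and HOXD9 had 2 probes each and the other genes 1. Another 9217 probes had no name and could not be members.

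Signals are given as log2 of the processed intensity minus the 75th percentile of the same array, so that 0 means as bright as the 75th percentile and 1 unit is a 2-fold difference. The 75th percentile was an intensity of 2134 to 2385 on the 4 arrays. A probe counted as well above background where the image software flagged it so, and a gene counted where at least 1 of its probes did. The weakest flagged signal of an array was an intensity of 21.0 to 28.8, and no spot was saturated. Brightness depends on the probe as well as on the transcript, so differences were taken between arrays and never between genes. Levels are set beside the 75th percentile or those of marker genes only as a rough guide.

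Epithelial markers were well above background on all 4 arrays for 5 of 5 genes, and androgen-responsive prostate markers for 3 of 5, KLK3 being below it on every array. The flag was also carried on all 4 arrays by 3 of 3 leukocyte, 2 of 2 endothelial and 2 of 3 fibroblast markers. CD3E was weak, at signals of −5.64 to −5.12, while CDH5 gave −3.72 to −3.18 and COL1A1 −1.44 to −0.25. The flag alone therefore does not set a HOX signal in this range apart from those of markers of other lineages. ALKBH3 itself was lower in the ALKBH3 shRNA arrays by both of its probes, with log2 differences of −2.05 and −1.63 (limma, adjusted p = 0.217 and 0.240, and 0.0247 and 0.0373 with the time point as a block).

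Promoter windows show the sequence around which detected and undetected HOX genes start. RefSeq (GRCh38.p14) windows of 300 bases, each spanning a start site, were found for 20 of the 38 genes as 26 distinct windows, HOXC4 and HOXC5 sharing a start and HOXA3 having 7. Printed below are HOXD3, well above background on all 4 arrays, beside its neighbour HOXD4, which was on none, and HOXA13, on all 4, beside its paralog HOXD13, on none. HOXD3 lies at chr2:176157057-176157356 on the plus strand, HOXD4 at chr2:176151300-176151599 on the plus strand, HOXA13 at chr7:27200042-27200341 on the minus strand, and HOXD13 at chr2:176092471-176092770 on the plus strand. Sequences run 5′ to 3′ and capitals mark CG dinucleotides, the sites of DNA methylation.
HOXD3: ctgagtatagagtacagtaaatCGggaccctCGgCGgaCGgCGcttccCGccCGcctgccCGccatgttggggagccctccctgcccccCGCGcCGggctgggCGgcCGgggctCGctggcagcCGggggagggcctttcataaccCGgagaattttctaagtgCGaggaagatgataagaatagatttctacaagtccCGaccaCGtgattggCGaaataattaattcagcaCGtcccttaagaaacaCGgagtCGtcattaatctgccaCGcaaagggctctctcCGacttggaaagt
HOXD4: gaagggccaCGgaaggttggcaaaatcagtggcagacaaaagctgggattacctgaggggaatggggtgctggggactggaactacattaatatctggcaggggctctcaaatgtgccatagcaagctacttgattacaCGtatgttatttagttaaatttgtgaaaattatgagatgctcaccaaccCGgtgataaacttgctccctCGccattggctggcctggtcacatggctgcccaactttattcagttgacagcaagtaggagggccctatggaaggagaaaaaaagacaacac
HOXA13: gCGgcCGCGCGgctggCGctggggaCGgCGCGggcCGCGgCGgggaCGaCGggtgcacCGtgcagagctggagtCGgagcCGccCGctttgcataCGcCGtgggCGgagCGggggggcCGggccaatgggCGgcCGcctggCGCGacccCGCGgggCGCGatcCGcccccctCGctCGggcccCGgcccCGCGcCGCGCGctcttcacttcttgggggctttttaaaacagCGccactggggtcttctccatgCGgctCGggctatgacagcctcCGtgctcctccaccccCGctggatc
HOXD13: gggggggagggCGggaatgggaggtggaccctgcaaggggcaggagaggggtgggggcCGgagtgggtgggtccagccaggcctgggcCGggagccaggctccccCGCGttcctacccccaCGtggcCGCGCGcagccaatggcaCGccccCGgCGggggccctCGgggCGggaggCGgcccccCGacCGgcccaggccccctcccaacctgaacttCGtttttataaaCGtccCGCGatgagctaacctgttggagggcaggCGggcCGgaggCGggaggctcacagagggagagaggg
HOXA13 held 44 CG dinucleotides and HOXD13 24, and HOXD3 held 25 while HOXD4 held 4. Over the 26 windows the median was 22.5, against 14 over 34943 windows of all genes. The 18 windows of genes well above background on all 4 arrays had a median of 21.5. They came from 11 genes, and 7 were of HOXA3, with counts of 0 to 29, so that HOXA3 weighs 7 times in it. The 6 windows of genes on none, HOXB1 and HOXD genes with 1 window each, had a median of 21. The motif TATAAA, searched on both strands, was in 5 of the 26 windows (19.2%) and in 11.6% of all windows, and HOXD13 was one of the 5. The motif TGATNNAT, of the kind bound by HOX and PBX proteins together, was in 3 of the 26 (11.5%) and in 7.42% of all windows, and none of the 4 printed windows held it.

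Of the 38 HOX genes, 21 were well above background on all 4 arrays, 6 on 1 to 3 arrays and 11 on none. The clusters differed in these counts. HOXA had 10 of 11 genes on all 4 arrays, HOXB and HOXC 5 of 9 each, and HOXD 1 of 9. By position, 5 of 8 genes at positions 1 to 3, 10 of 15 at positions 4 to 8 and 6 of 15 at positions 9 to 13 were on all 4. By probe, 23 of the 42 HOX probes were on all 4 arrays, against 64.8% of all probes of the array, unnamed ones included. Every measured member of paralog groups 2, 3 and 6 was well above background on all 4 arrays, and no member of group 12 was. These are counts of flags, mostly of 1 probe a gene, with no test.

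**Figure D1:**
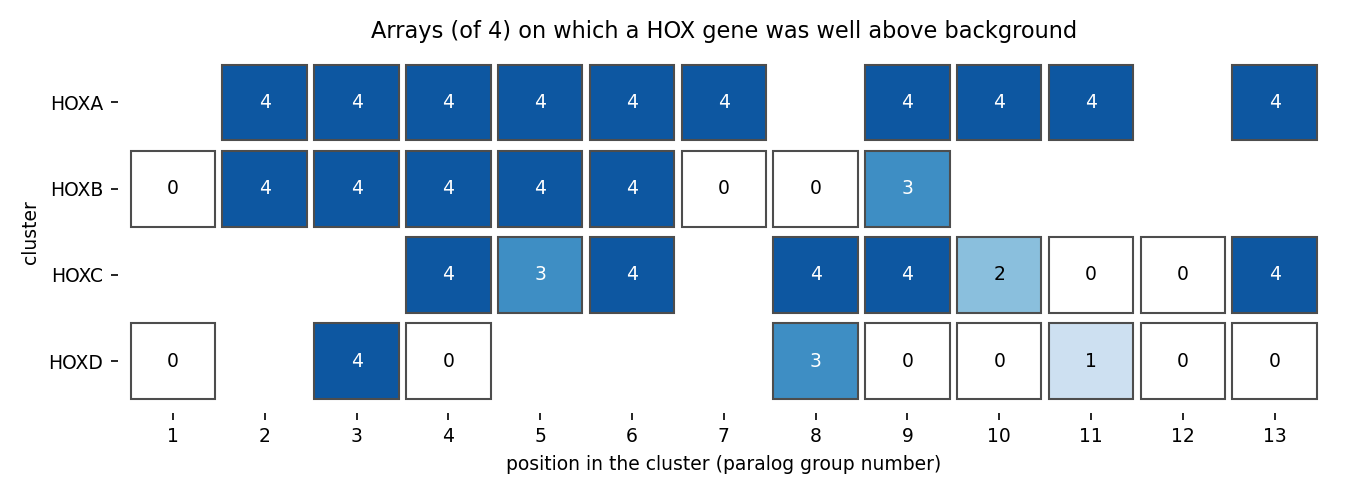
Number of the 4 arrays on which each HOX gene was well above background, by cluster (rows) and position in the cluster (columns); empty places are not shown here. HOXA held 4 at every place drawn, HOXB from 2 to 6, HOXC was broken at position 5 and at positions 10 to 12, and HOXD had only HOXD3 on all 4 arrays.

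In HOXA the run of detected genes was unbroken from HOXA2 to HOXA13, with HOXA2 and HOXA7 weak in it, at lowest intensities of 103 and 68.9. HOXA13, the gene at the 5′ end with roles in limb and urogenital development, gave signals of 1.56 and 1.32 in the control shRNA arrays at 48 h and 96 h and of 2.08 and 1.59 in the ALKBH3 shRNA arrays. HOXA10, a regulator of the reproductive tract, gave 1.78 and 1.65 in the control arrays and 1.97 and 1.91 in the ALKBH3 shRNA arrays by its brighter probe. HOXA9, known for its part in blood stem cells and leukaemia, gave 2.03 and 1.72 in the control arrays and 2.08 and 1.83 in the others, again by its brighter probe. By these probes the 3 genes lay above the 75th percentile on every array, and in HOXA10 and HOXA13 both ALKBH3 shRNA arrays were brighter than both control arrays.

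HOXA11, needed for the forearm and the uterus, gave −2.03 and −2.41 in the control arrays and −1.60 and −1.60 in the ALKBH3 shRNA arrays, and the groups did not overlap. HOXA7 gave −4.20 and −5.09 in the control arrays and −3.91 and −4.14 in the ALKBH3 shRNA arrays. Its control array at 96 h was the lowest and stood apart from the other arrays. HOXA6 gave −2.84 and −3.12 in the control arrays and −2.81 and −3.09 in the ALKBH3 shRNA arrays, a split by time and not by shRNA.

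HOXA5, a gene needed for lung development, was the steadiest of the set at −2.16 and −2.13 in the control arrays and −2.07 and −2.17 in the ALKBH3 shRNA arrays. HOXA4 gave −1.94 and −1.75 in the control arrays and −1.68 and −1.54 with ALKBH3 shRNA. HOXA3, which acts in the thymus and parathyroid, gave −1.30 and −1.07 in the control arrays and −1.25 and −0.68 in the ALKBH3 shRNA arrays. HOXA3 was higher at 96 h than at 48 h with either shRNA, and so was HOXA2, a gene of the hindbrain and branchial arches, at −4.37 and −3.81 in the control arrays and −4.41 and −3.38 in the ALKBH3 shRNA arrays.

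In HOXB the detected run went from HOXB2 to HOXB6. HOXB2, HOXB3 and HOXB4 were weak in it, at intensities of 61.1 to 98.8 by the brighter probe of HOXB2. The flag does not set such signals apart from those of markers of other lineages. This holds as well for HOXA2 and HOXA7, for HOXC8 at a lowest intensity of 115 and for HOXD3 at one of 101. HOXB6 gave 1.20 and 1.08 in the control arrays and 1.06 and 0.96 in the ALKBH3 shRNA arrays. HOXB5, a gene of the enteric nervous system, gave −1.32 and −1.10 in the control arrays and −1.53 and −1.42 in the ALKBH3 shRNA arrays. In both genes the ALKBH3 shRNA arrays lay below the control arrays. HOXB4, which expands blood stem cells when overexpressed, gave −5.12 and −4.66 in the control arrays and −4.96 and −4.68 in the ALKBH3 shRNA arrays, and was higher at 96 h in each.

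HOXB3 gave −4.81 and −4.83 in the control arrays and −4.57 and −4.68 in the ALKBH3 shRNA arrays. HOXB2, a hindbrain gene, gave −4.76 and −5.09 in the control arrays and −4.70 and −4.59 in the ALKBH3 shRNA arrays by its brighter probe. The dimmer HOXB2 probe was not well above background on the ALKBH3 shRNA array at 96 h and differed between shRNAs in the other direction, by −0.18 against 0.28 for the brighter probe. HOXB9 was well above background on 3 arrays, all but the control array at 96 h. HOXB1, HOXB7 and HOXB8 were on none, so that HOXB9 stood beyond a gap.

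In HOXC the detected genes were HOXC4, HOXC6, HOXC8, HOXC9 and, beyond a gap, HOXC13. HOXC6, a gene often reported as raised in prostate tumours, gave 0.19 and 0.10 in the control arrays and 0.43 and 0.48 in the ALKBH3 shRNA arrays. HOXC4 gave −3.12 and −3.35 in the control arrays and −2.42 and −2.45 in the ALKBH3 shRNA arrays. HOXC8, a gene of the thoracic skeleton, gave −4.21 and −4.23 in the control arrays and −3.63 and −3.34 in the ALKBH3 shRNA arrays. In these 3 genes every ALKBH3 shRNA array was above every control array, with the control arrays of each within 0.23 of each other.

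HOXC9, which patterns thoracic motor neurons, gave −3.18 and −2.99 in the control arrays and −3.12 and −3.02 in the ALKBH3 shRNA arrays. HOXC13, a regulator of hair keratins, gave −1.16 and −1.30 in the control arrays and −1.43 and −1.36 in the ALKBH3 shRNA arrays. HOXC5 was well above background on 3 arrays, all but the ALKBH3 shRNA array at 48 h, and HOXC10 on 2, both with ALKBH3 shRNA. HOXC11 and HOXC12 were on none. HOXC4 and HOXC5 share an annotated start, and transcripts that span both could reach either probe.

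In HOXD only HOXD3 was detected throughout, at −4.41 and −4.24 in the control arrays and −3.64 and −3.68 in the ALKBH3 shRNA arrays, 2 groups that did not overlap. HOXD8 was well above background on 3 arrays, all but the control array at 96 h, and HOXD11 only on the control array at 96 h. HOXD1, HOXD4, HOXD9, HOXD10, HOXD12 and HOXD13, the last a gene of the digits and external genitalia, were on none.

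**Figure D2:**
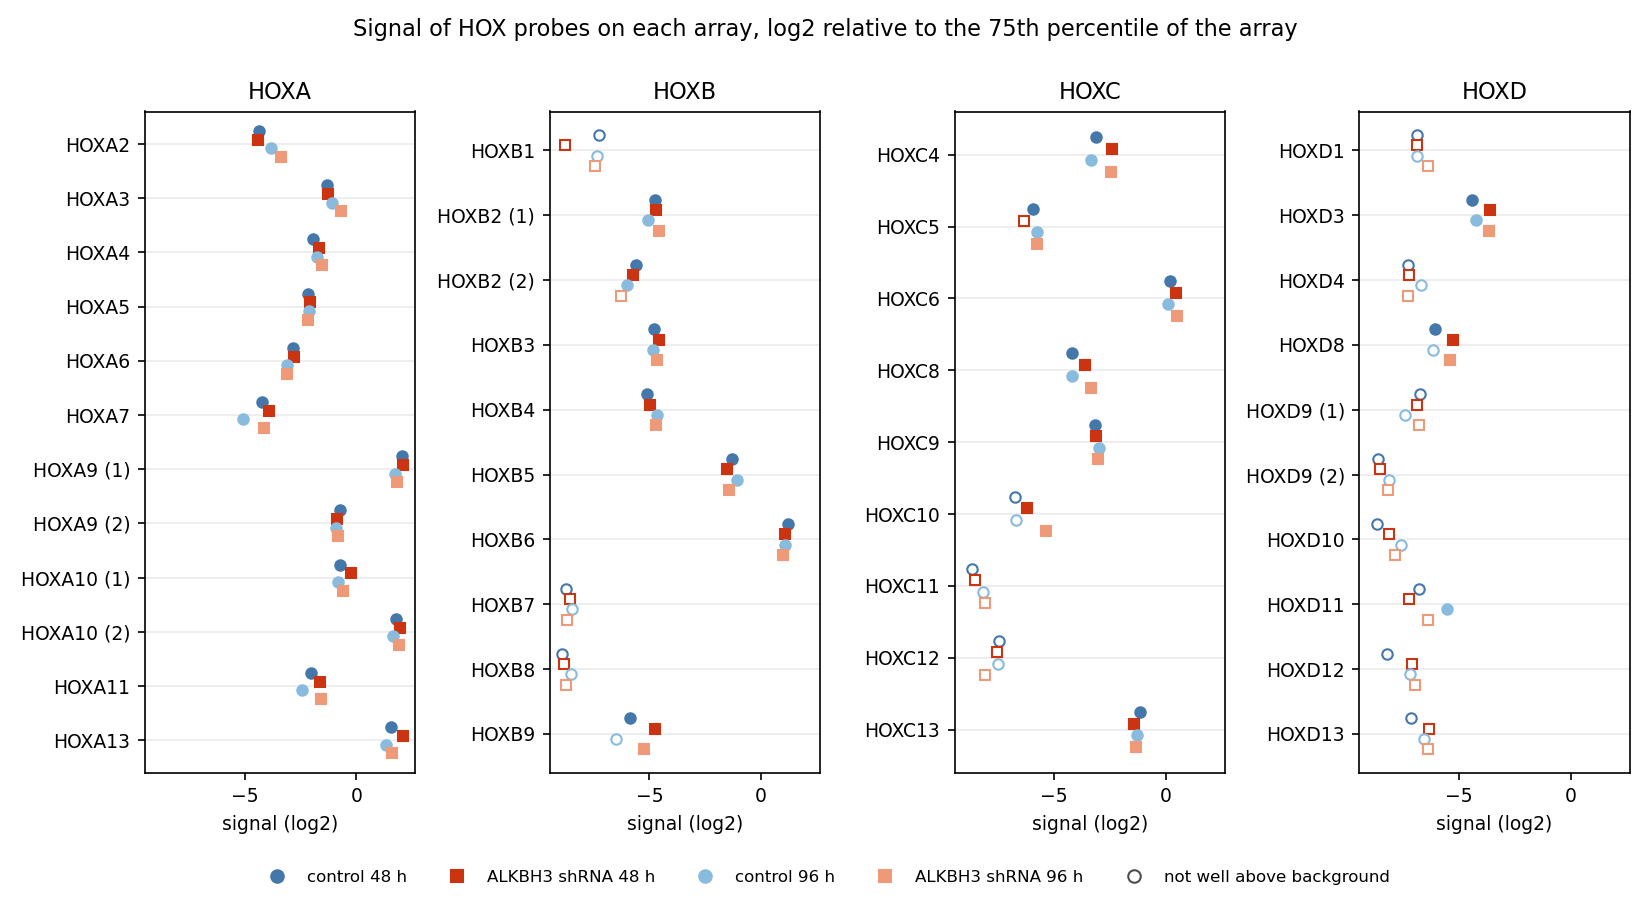
Signal of HOX probes on the 4 arrays (x axis, log2 relative to the 75th percentile of the array), with open symbols where the probe was not well above background; (1) and (2) number the probes of a gene. HOXA9, HOXA10, HOXA13, HOXB6 and HOXC6 lay above 0 on every array by at least 1 probe, HOXB9 spanned −6.49 to −4.74, and most HOXD probes lay below −6.

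Detected HOX genes had a spread over the 4 arrays with a median close to that of other probes and a higher upper quartile. Over the 23 HOX probes of the 21 genes the SD over the arrays had a median of 0.18 log2 units, against 0.16 over all 22126 probes that met the same filter. The upper quartile was 0.35 for the HOX probes against 0.25. The SD ran from 0.05 for HOXA5 to 0.52 for HOXA7. The median by cluster was 0.21 for 12 HOXA probes, 0.18 for 5 HOXB probes and 0.18 for 5 HOXC probes, and the single HOXD probe had 0.39. The highest and lowest array differed by 2-fold or more for 2 of the 23 HOX probes (8.70%), HOXA2 with a range of 1.03 and HOXA7 with 1.18, against 5.51% of all such probes. The 4 arrays are not replicates of one condition, so this spread holds the differences between shRNAs and times. The size of the difference between shRNAs, whatever its sign, had a median of 0.21 for the HOX probes against 0.14 over all at 48 h and of 0.26 against 0.14 at 96 h. Between times it was 0.19 against 0.17 with control shRNA and 0.11 against 0.19 with ALKBH3 shRNA.

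**Figure D3:**
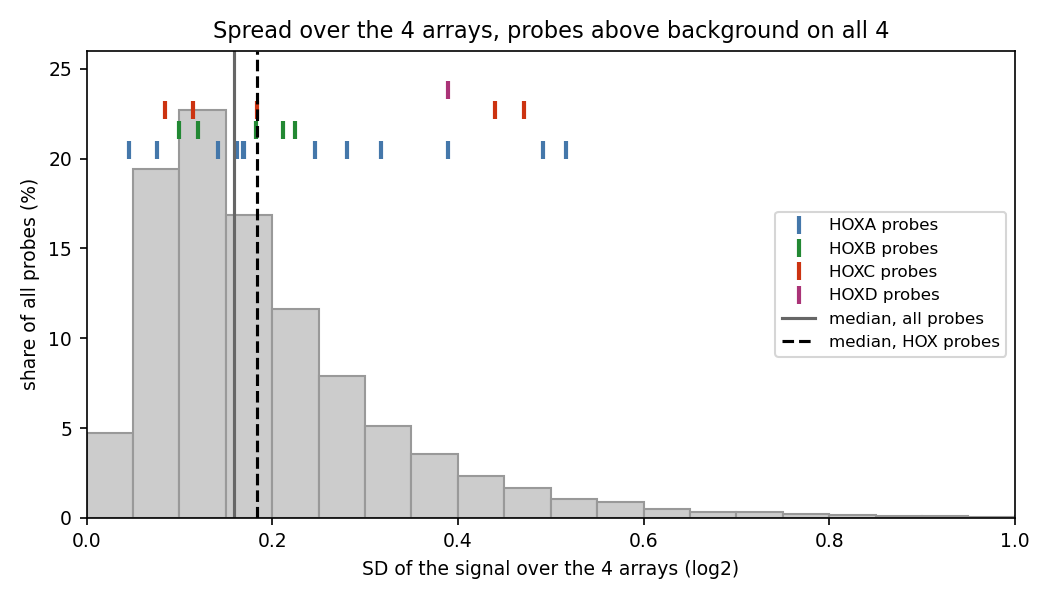
SD of the signal over the 4 arrays (x axis, log2) for all 22126 probes well above background on all 4 (bars, percent of probes per bin of the SD; bins above 1 not drawn), with the 23 HOX probes as ticks by cluster, whose height has no meaning. The medians of 0.16 and 0.18 lie close together, and the HOX ticks reach 0.52.

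The comparison of ALKBH3 shRNA with control shRNA asked whether loss of the demethylase went with other HOX levels. Most HOX probes were somewhat brighter with ALKBH3 shRNA. At limma's adjusted p under 0.05 none passed without a block, against 0% of all probes tested. With the time point as a block 3 passed, against 2.13%. Of the 42 HOX probes, 28 probes of 25 genes passed the filter, which asked for signal well above background on both arrays of one shRNA or the other, and 23244 probes were tested in all. Of these 28, 5 passed through one shRNA alone, HOXB9, HOXD8 and HOXC10 through the ALKBH3 shRNA arrays and HOXC5 and the dimmer HOXB2 probe through the control arrays. Passing through the shRNA where a probe is bright favours a difference, so the 23 probes detected on every array are given beside the 28. The median log2 difference of the 28 was 0.22, against 0.0033 over all probes tested, and 22 of the 28 differences were positive, against 50.7% of all. At 48 h the median over these probes was 0.17 and at 96 h 0.25. Over the 23 HOX probes detected on every array, a filter that favours neither shRNA, the median was 0.22 against −0.0027 over all such probes, with 19 of 23 positive against 49.4%. The HOX differences were not evenly spread over the clusters: the median was 0.22 in HOXA, 0.07 in HOXB and 0.31 in HOXC, and the single HOXD probe had 0.66. These counts and medians are descriptions, and genes of a cluster share regulation and are not independent.

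Every ALKBH3 shRNA array was above every control array for 15 of the 28 probes, against 17.5% of all probes tested, and below for 3, against 18.5%. Over the 23 probes detected on every array it was above for 12, against 16.2%, and below for 3, against 19.0%. At 2-fold and an unadjusted p under 0.05, the cutoffs of the methods, 1 HOX probe passed as higher, against 0.895% of all probes tested, and 0 as lower, against 0.232%. With the Benjamini-Hochberg adjustment 0 of the 28 passed, as did 0% of all 23244 probes, and the smallest adjusted p of a HOX probe was 0.358. At an unadjusted p under 0.05 with no fold 7 of the 28 passed, against 7.64%. These were HOXD8, HOXC4, HOXC8, HOXD3, HOXB9, HOXA11 and HOXC10, all higher with ALKBH3 shRNA, of which HOXC4, HOXC8, HOXD3 and HOXA11 were detected on every array. With the time point as a block in limma, 3 of the 28 passed at adjusted p under 0.05, against 2.13% of all probes, and of the 3 only HOXC4 was detected on every array.

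HOXB9, the one probe past both cutoffs, gave −5.86 and −6.49 in the control arrays and −4.74 and −5.23 in the ALKBH3 shRNA arrays. The groups did not overlap, and the control array at 96 h was not well above background, so that its control level was measured on 1 array and it entered the test through the ALKBH3 shRNA arrays alone. With the filter on all 4 arrays it was not tested. The log2 difference was 1.19 (SE 0.28), a fold of 2.28, with limma's adjusted p = 0.445, and 0.0373 with the time point as a block. These signals are of the same order as those of the leukocyte markers. The difference was 0.36 with normexp background correction and 0.59 with the authors' normalized values, neither past the cutoffs, and it was 0.87 without the control array at 96 h and 0.95 without the ALKBH3 shRNA array at 48 h.

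HOXC4 and HOXD8 were the other 2 probes past adjusted p with the block. HOXC4 differed by 0.80 (SE 0.14, fold 1.74), with limma's adjusted p = 0.384 and 0.0468 with the block, and by 0.69 to 0.82 under the other ways of processing. HOXD8 gave −6.08 and −6.15 in the control arrays, the latter not well above background, and −5.29 and −5.39 in the ALKBH3 shRNA arrays, and it too entered the test through the latter alone. It differed by 0.77 (SE 0.12, fold 1.71), with adjusted p = 0.358 and 0.0417 with the block, and by 0.27 with normexp.

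HOXC8 differed by 0.73 (SE 0.15) and HOXD3 by 0.66 (SE 0.13), each with limma's adjusted p = 0.384, and 0.0568 and 0.0564 with the block. HOXA11 differed by 0.62 (SE 0.17, adjusted p = 0.511). HOXA7 differed by 0.62 (SE 0.32, adjusted p = 0.755), by 0.30 at 48 h and 0.95 at 96 h, and by 0.34 with normexp. HOXC10 gave −6.75 and −6.69 in the control arrays, not well above background, and −6.23 and −5.37 in the ALKBH3 shRNA arrays. Its control level was measured on neither array, so no fold is given (limma, adjusted p = 0.596), and the log2 difference of the signals was 0.92, or 0.29 with normexp, 0.58 with the authors' normalized values and 0.49 without the ALKBH3 shRNA array at 96 h.

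Differences were smaller for the other HOX probes. HOXA13 differed by 0.40 (SE 0.21) and HOXC6 by 0.31 (SE 0.12), and HOXA10 by 0.22 and 0.36 with its 2 probes. HOXA9 differed by 0.08 and −0.01 with its 2 probes, and HOXA5 by 0.03. The 3 probes with ALKBH3 shRNA arrays below both control arrays were HOXB5 at −0.26, HOXC13 at −0.16 and HOXB6 at −0.13. None of these passed a cutoff.

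**Figure D4:**
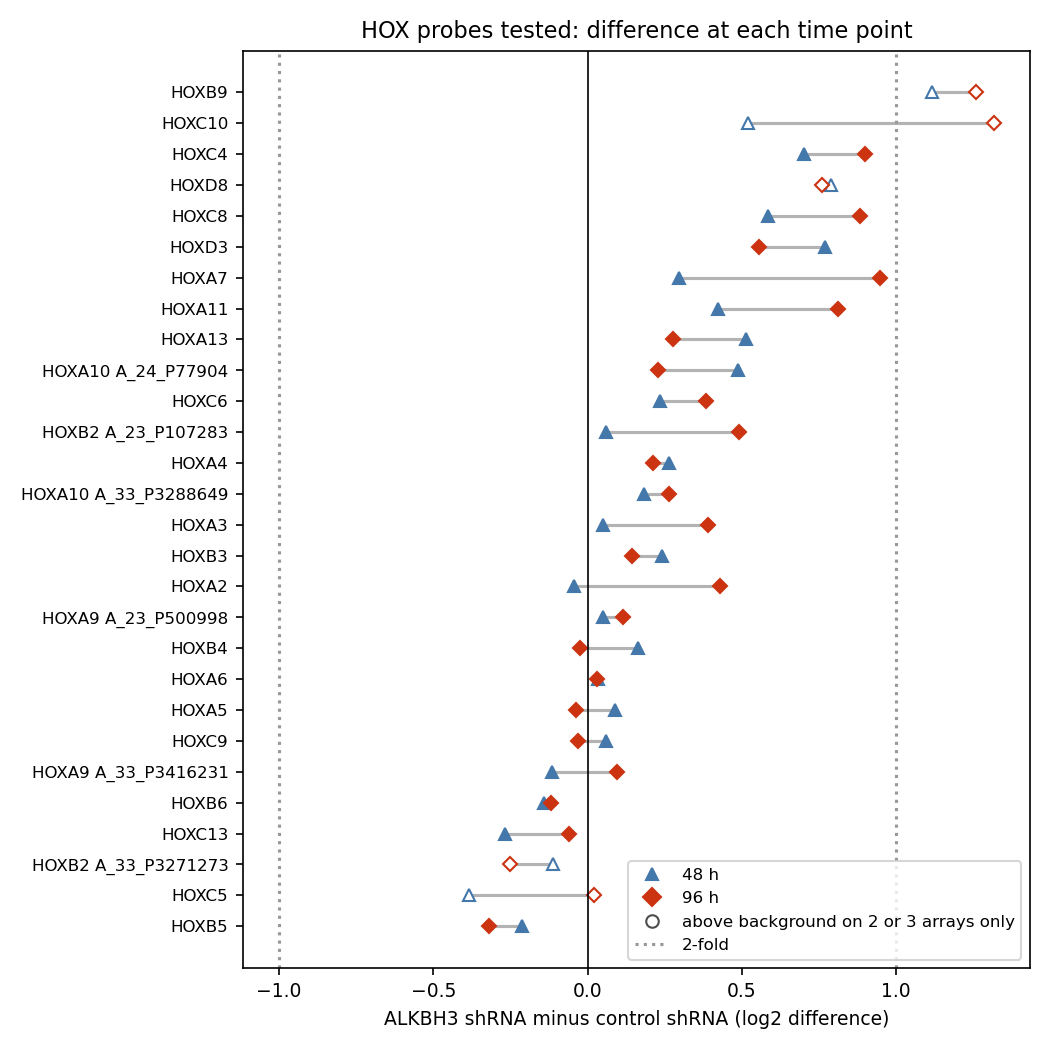
Log2 difference of ALKBH3 shRNA minus control shRNA at 48 h (triangles) and 96 h (diamonds) for the 28 HOX probes tested, ordered by their mean, with open symbols for probes above background on 2 or 3 arrays. Most points lie right of 0, and only HOXB9 lies past the 2-fold line at both time points.

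The comparison of 96 h with 48 h asked what longer selection went with, and time and slide cannot be told apart here. It took in 27 HOX probes of 24 genes among 23274 probes tested, of which HOXB9, HOXD8 and the dimmer HOXB2 probe entered through the 48 h arrays alone and HOXC5 through the 96 h arrays alone. More HOX probes were lower than higher at 96 h, and 9 of 27 differences were positive against 50.7% of all. The median was −0.08 against 0.0040 over all probes tested. At 2-fold and unadjusted p 0 HOX probes passed as higher, against 0.322% of all, and 0 as lower, against 0.692%. With limma's adjusted p 0 passed, against 0%, and at an unadjusted p under 0.05 with no fold 5 passed, against 18.9%. Arrays at 96 h lay above both arrays at 48 h for 5 HOX probes, against 27.8%, and below for 3, against 25%. Over the 23 probes detected on every array the median was −0.06 against 0.0036, with 8 of 23 positive against 50.6%, 4 above against 27.5% and 2 below against 25.2%.

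With the shRNA as a block 3 of the 27 passed at limma's adjusted p under 0.05, against 9.75% of all probes, and of the 3 only HOXA2 was detected on every array. HOXA2 was higher at 96 h by 0.80 (SE 0.17), with adjusted p = 0.147 and 0.0435 with the block. HOXB9 differed by −0.55 (SE 0.57), with adjusted p = 0.634 and 0.0389 with the block, and by 0.0036 without the ALKBH3 shRNA array at 48 h and 0.075 without the control array at 96 h. The dimmer HOXB2 probe was lower by 0.49 (SE 0.13), with adjusted p = 0.183 and 0.0467 with the block, while the brighter probe differed by −0.11. HOXA2 was higher at 96 h by 0.56 with control shRNA and by 1.03 with ALKBH3 shRNA.

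The partners and regulators of HOX proteins gave no called gene in either comparison, in either direction. Each listed gene is given by the brightest of its probes, tested ones first. Beside the counts that follow, 64.8% of all probes were well above background on all 4 arrays. Of those, 49.4% had a positive shRNA difference. Of the HOX cofactors, 7 of the 8 matched genes were well above background on all 4 arrays, with a median shRNA difference of −0.25 and 3 of 7 positive. MEIS2, a cofactor, differed by −0.46 (SE 0.12, limma's adjusted p = 0.464) and MEIS1 by 0.19. Between times MEIS1 differed by 0.24.

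All 18 matched Polycomb genes were well above background on all 4 arrays, with a median shRNA difference of −0.11 and 5 of 18 positive. CBX2, a reader of the Polycomb histone mark, differed by −0.56 (SE 0.14, limma's adjusted p = 0.445) and RNF2, its ubiquitin ligase partner, by 0.26. The histone methyltransferase EZH2 differed by −0.07 between shRNAs and by 0.53 between times, while JARID2 differed by −0.29 between times. All 12 Trithorax genes were also detected throughout, with a median of −0.16 and 4 of 12 positive. Of these DPY30, a core subunit of the methyltransferase complexes, differed by −0.62 (SE 0.13, adjusted p = 0.389) and ASH2L by 0.13, and between times KDM6B differed by −0.51 and PSIP1 by 0.36.

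Of the 9 genes that act upstream of HOX genes, 5 were well above background on all 4 arrays, and the median shRNA difference of these 5 was 0.03, with 3 positive. RARA, a retinoic acid receptor, differed by 0.11 and CDX1, a caudal-type homeobox gene, by −0.15. CYP26A1, which breaks down retinoic acid, differed by 0.55 between times and RARG by −0.06. Of the noncoding RNAs of the clusters 3 had a probe. HOXA11-AS, antisense to HOXA11, was well above background on all 4 arrays and differed by 0.16 between shRNAs and by −0.52 between times, HOTAIR was on 1 array and HOXB-AS3 on none.

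Genes that flank the clusters were mostly detected, also beside HOXD, though by the brightest of their probes, while most HOX genes had 1 probe. Of 10 flanking genes 9 were well above background on all 4 arrays, with a median shRNA difference of 0.10 and 5 of 9 positive. The other, SKAP1, was on 1 array. MTX2, LNPK and EVX2, beside HOXD, were detected on all 4 arrays although 1 of 9 HOXD genes was. EVX2 was weak, at signals of −5.71 to −5.34, about the level of the leukocyte marker CD3E, while MTX2 gave 1.24 to 1.52. TTLL6 differed by 0.36 and CBX5 by −0.29 between shRNAs, and by −0.26 and 0.61 between times.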

How the data were processed

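RNA of the 4 PC3 cultures was labelled with Cy3 and hybridised to Agilent Human Gene Expression 4x44K v2 arrays. The deposited scanner files hold intensity values per spot, from which, per the file headers, the authors' Feature Extraction software (10.7.3.1) had already subtracted background and spatial trend, with no scaling between arrays. The deposited flags (other) mark spots well above background. The authors' normalized log2 values, whose exact normalization is not stated in the sources used here, served as an alternative. Their medians were 7.52 to 7.54 per array.

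From these, spots flagged as outliers were removed (180 to 379 per array), the 75th percentile of log2 intensity was subtracted per array, and replicate spots were averaged per probe. Probes counted as well above background where at least 0.5 of their spots were flagged so. Of the probes, 26 had no spot left on an array and were not tested. The fits used lmFit and eBayes of limma 3.58.1 in R 4.3.3 over all tested probes, 2 arrays against 2, with Benjamini-Hochberg adjustment. Calls needed 2-fold and unadjusted p under 0.05, or adjusted p under 0.05. The script was tested on simulated data. The number of arrays limits the precision.

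The arrays pair by time point, which the labels give, and arrays of a time point share a slide. Deviations of same-time arrays correlated at 0.71 over 22126 probes. Blocked values are given where they change a call. Alternatives were normexp (offset 50), quantile normalization, other centring, the authors' values, other filters, 1 probe a gene, a block, the methods' t-test, 1.5-fold and leaving out each array.

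Named were genes detected on all 4 arrays or called, with values, others by name, and from each list of partners, regulators and neighbours the called genes and the extremes. The members and lists were chosen with earlier results of these data known. RefSeq coordinates (GRCh38.p14) apply to the printed promoters only; the arrays' grid names hg19. Some genes are not reported here.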

Additional observations from a re-analysis of the deposited data

Results flagged for a closer look

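The difference between shRNAs ran in opposite directions at 48 h and 96 h for 5 HOX probes well above background on all 4 arrays, with 1 array per shRNA and time. The difference was not tested. From 48 h to 96 h it moved by 0.47 for HOXA2 (−0.04 to 0.43), by −0.19 for HOXB4 (0.16 to −0.02), by −0.13 for HOXA5 (0.09 to −0.04), by −0.0903 for HOXC9 (0.06 to −0.03) and by 0.21 for the dimmer HOXA9 probe (−0.12 to 0.09).

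The difference between times ran in opposite directions with control shRNA and with ALKBH3 shRNA for 8 such probes, which was not tested either. From control to ALKBH3 shRNA it moved by 0.43 for HOXB2 (−0.33 to 0.11), by 0.39 for HOXA11 (−0.38 to 0.00), by 0.30 for HOXC8 (−0.01 to 0.28), by −0.22 for HOXD3 (0.17 to −0.04), by 0.21 for HOXC13 (−0.14 to 0.06) and by 0.15 for HOXC6 (−0.09 to 0.06). HOXA5, by −0.13, and the dimmer HOXA9 probe, by 0.21, met this as well as the first. Each of these is a contrast of 4 single arrays.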

How the results depend on the processing

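Detection depended on the flag. In place of 21, 34 of the 38 HOX genes were positive and significant against their local background on all 4 arrays. By all of their probes 20 were well above background. An intensity of at least 100 on all 4 arrays, a limit chosen after seeing the data, left 17, without HOXA7, HOXB2, HOXB3 and HOXB4. No share over all probes was taken for these counts, and the counts by cluster above hold for the well-above-background flag only. The median SD was 0.28 with no filter on dim probes.

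For ALKBH3 shRNA against control, the count past 2-fold and p was 0 with normexp and with the authors' values. It was also 0 with the filter on all 4 arrays and with the methods' t-test. At 1.5-fold it was 7, the probes named above at an unadjusted p under 0.05, and the share of all probes was not taken. Of these, HOXB9, HOXD8 and HOXC10 entered the test through the ALKBH3 shRNA arrays alone. HOXB9 was lost without the ALKBH3 shRNA array at 48 h or the control array at 96 h. HOXA7 passed without the control array at 48 h and HOXC10 without the ALKBH3 shRNA array at 48 h. The median was 0.17 with median centring, which moved the median of all probes to −0.05. With the time point as a replicate block, 3 HOX probes passed adjusted p in place of 0. The sign was kept in every alternative by 18 of 28 probes.

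For 96 h against 48 h, the median of −0.08 became −0.0012 with normexp, −0.0208 with the authors' values, 0.0598 with no filter on dim probes, and −0.21 to 0.075 with 1 array left out, turning sign without the ALKBH3 shRNA array at 48 h (0.05) or the control array at 96 h (0.075). The count past 2-fold and p was 1 with no filter and 1 at 1.5-fold, and the shares of all probes were not taken. With 1 array left out the log2 difference ran from 0.58 to 1.01 for HOXA2 and from −1.03 to −0.08 for HOXA7. With the shRNA as a block 3 passed adjusted p. The sign was kept by 11 of 27 probes. The cause was not tested. Dim probes such as HOXB9, HOXD8 and HOXC10 limit what signal over background can show.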
